A study of Mus musculus with 12 samples.

Results

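The podocyte genes described here are 7 genes of the glomerular filter, chosen by name and found in the deposited expression table by their NCBI Gene number: Nphs1, Cd2ap, Magi2, Podxl, Ptpro, Synpo and Wt1. All 7 were found among the 27179 genes of the table, and all 7 passed the filter on low values that left 14972 genes for testing. The data were RNA sequencing libraries of whole mouse kidney, 12 in number, with 3 mice in each of 4 groups. Wild-type (WT) mice and FAN1KO mice, labelled γGT1-Cre;Fan1-/-, received saline or cisplatin, a DNA crosslinking drug, given into the peritoneum once a week at 2 mg/kg for 5 weeks. All mice were 8 to 12 weeks old by the labels, which give the strain background as mixed. The Cre driver removes Fan1, which encodes a DNA repair nuclease, in proximal tubule cells, so podocytes of FAN1KO mice are not the cells the deletion was aimed at. Values are transcripts per 1000000 (TPM), a level corrected for gene length and for library size, in whole kidney, where podocytes are a small share of the cells. In such bulk tissue, fewer podocytes and less RNA per podocyte cannot be told apart.

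Podocytes are the epithelial cells that cover the outside of the glomerular capillaries. Their foot processes interlock and are bridged by the slit diaphragm, a thin junction that holds back plasma proteins while water and small solutes pass. Nephrin (Nphs1) forms the bridge, CD2AP (Cd2ap) and MAGI-2 (Magi2) are scaffold proteins that link it to the cell interior, podocalyxin (Podxl) is the charged sialomucin of the cell surface, the receptor phosphatase GLEPP1 (Ptpro) sits in the apical membrane, synaptopodin (Synpo) binds actin in the foot processes, and WT1 (Wt1) is the zinc finger transcription factor of mature podocytes. Nphs1, Podxl, Ptpro, Synpo and Wt1 are largely restricted to podocytes in the adult kidney cortex, with Podxl also made by endothelium, whereas Cd2ap is made by many cell types, tubule cells among them.

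In RefSeq on build GRCm38.p6, Nphs1 lies at chr7:30458207-30488623, Cd2ap at chr17:42748887-42876707, Magi2 at chr5:19219387-20704792, Podxl at chr6:31519493-31563937, Ptpro at chr6:137252299-137464634 and Wt1 at chr2:105126529-105173614. Promoter windows, from 250 bases before to 50 bases after a start that the RefSeq promoter table lists, were matched by symbol for 4 of the 7 genes (Nphs1, Ptpro, Cd2ap and Magi2). The listed start is the outer end of the gene for Ptpro, whereas for Nphs1, Cd2ap and Magi2 the windows lie inside the bounds given above, downstream of that end. The windows of Nphs1 and Ptpro, which followed Wt1 closely from library to library, and of Cd2ap, which did not, are shown 5′ to 3′ on the strand of the gene. Capitals mark GTGGGNG on either strand, a short core of the kind of element that WT1 binds. The Nphs1 window is chr7:30459808-30460107 on the plus strand, the Ptpro window chr6:137252049-137252348 on the plus strand and the Cd2ap window chr17:42876375-42876674 on the minus strand.
Nphs1: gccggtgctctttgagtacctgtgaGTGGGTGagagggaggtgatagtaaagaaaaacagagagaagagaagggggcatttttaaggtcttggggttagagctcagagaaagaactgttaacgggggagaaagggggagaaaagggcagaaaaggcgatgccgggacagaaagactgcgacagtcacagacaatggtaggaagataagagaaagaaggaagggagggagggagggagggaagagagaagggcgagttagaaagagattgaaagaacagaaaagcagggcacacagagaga
Ptpro: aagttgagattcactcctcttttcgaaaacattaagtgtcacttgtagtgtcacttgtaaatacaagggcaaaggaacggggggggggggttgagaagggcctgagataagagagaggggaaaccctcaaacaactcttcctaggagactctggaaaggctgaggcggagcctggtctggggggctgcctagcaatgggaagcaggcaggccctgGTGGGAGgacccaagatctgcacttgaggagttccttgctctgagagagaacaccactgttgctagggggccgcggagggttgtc
Cd2ap: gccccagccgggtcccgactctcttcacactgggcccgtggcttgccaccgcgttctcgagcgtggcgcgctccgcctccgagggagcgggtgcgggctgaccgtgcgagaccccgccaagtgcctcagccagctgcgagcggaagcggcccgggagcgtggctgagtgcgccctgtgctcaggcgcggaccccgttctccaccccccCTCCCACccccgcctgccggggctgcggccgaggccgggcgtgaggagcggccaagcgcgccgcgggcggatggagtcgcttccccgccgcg
Each of these windows held 1 match, and so did 1 of the 2 windows of Magi2, against 31.6% of all 32851 windows of this length. A match describes the letters of the window and is no evidence of binding.

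The reads behind each value were recovered from the steps between TPM values, and 37201518 to 82945897 reads per library were assigned to genes. Nphs1 rested on 327 to 2104 reads per library and Magi2 on 229 to 631. Fan1 itself was at 3.80, 3.35 and 1.98 TPM in WT saline, 1.17, 1.54 and 2.28 in FAN1KO saline, 2.33, 3.57 and 3.32 in WT cisplatin, and 2.72, 3.51 and 1.55 in FAN1KO cisplatin kidneys. The genotypes overlapped under both treatments, so the Fan1 level over the whole gene did not serve to check the genotype labels. The log2 difference FAN1KO minus WT was -0.59 ± 0.27 (SE) under saline (adjusted p = 0.593 by limma with Benjamini-Hochberg adjustment) and -0.21 ± 0.27 under cisplatin (adjusted p = 0.604). Exactly 1 library of each group carried RNA from the Y chromosome, read from Uty, Kdm5d, Eif2s3y and Ddx3y, and the labels give no sex. These 4 libraries were WT saline 3, FAN1KO saline 1, WT cisplatin 1 and FAN1KO cisplatin 3, and results are given with and without them where they matter.

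In wild-type kidneys of the saline group the 7 genes differed widely in level. Podxl was the most abundant at 54.6 ± 27.6 TPM (SD, n = 3), followed by Cd2ap at 29.6 ± 7.38 TPM and Synpo at 15.0 ± 6.97 TPM. Wt1 (6.18 ± 2.94 TPM) and Nphs1 (6.04 ± 3.32 TPM) were level with each other, and Ptpro (3.68 ± 1.84 TPM) and Magi2 (1.90 ± 0.534 TPM) were the lowest. The ranges of neighbours in this order overlapped except those of Cd2ap and Synpo, and Wt1 and Nphs1 changed places, with Wt1 the higher in 5 of 12 libraries. Within a library the order was firmer than the overlapping ranges show, since Nphs1 exceeded Ptpro, and Synpo exceeded Wt1, in 12 of 12 libraries. Annotated neighbours overlap Nphs1 and Magi2, and those with a value in the table (Nphs1os, at most 0.0715 TPM, and 4921504A21Rik, at most 2.11 TPM) may share reads with them, since the strand setting of the counting is not given in the sources used here.

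Among the slit diaphragm genes, Nphs1 was at 9.24, 6.27 and 2.61 TPM in WT saline and 5.59, 12.4 and 11.2 TPM in FAN1KO saline kidneys. It was at 3.81, 11.3 and 7.94 TPM in WT cisplatin and 17.8, 6.63 and 2.61 TPM in FAN1KO cisplatin kidneys. The 4 groups overlapped, and the highest and the lowest of the 12 libraries both belonged to the same group, FAN1KO cisplatin, 6.82-fold apart, with WT saline 3 level with the lowest. Cd2ap was at 33.9, 33.7 and 21.0 TPM in WT saline, 21.9, 30.8 and 32.6 TPM in FAN1KO saline and 26.7, 37.8 and 35.3 TPM in WT cisplatin kidneys. In FAN1KO cisplatin kidneys it was at 79.2, 67.9 and 61.2 TPM. Cd2ap was thus higher in each of these 3 libraries than in any of the other 9, while the other groups overlapped. Magi2 was at 2.19, 2.23 and 1.29 TPM in WT saline, 2.03, 2.99 and 3.49 TPM in FAN1KO saline, 1.63, 1.87 and 1.76 TPM in WT cisplatin, and 2.69, 1.85 and 1.43 TPM in FAN1KO cisplatin kidneys. Its groups overlapped in every comparison, and its highest library was a FAN1KO saline kidney.

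**Figure D1:**
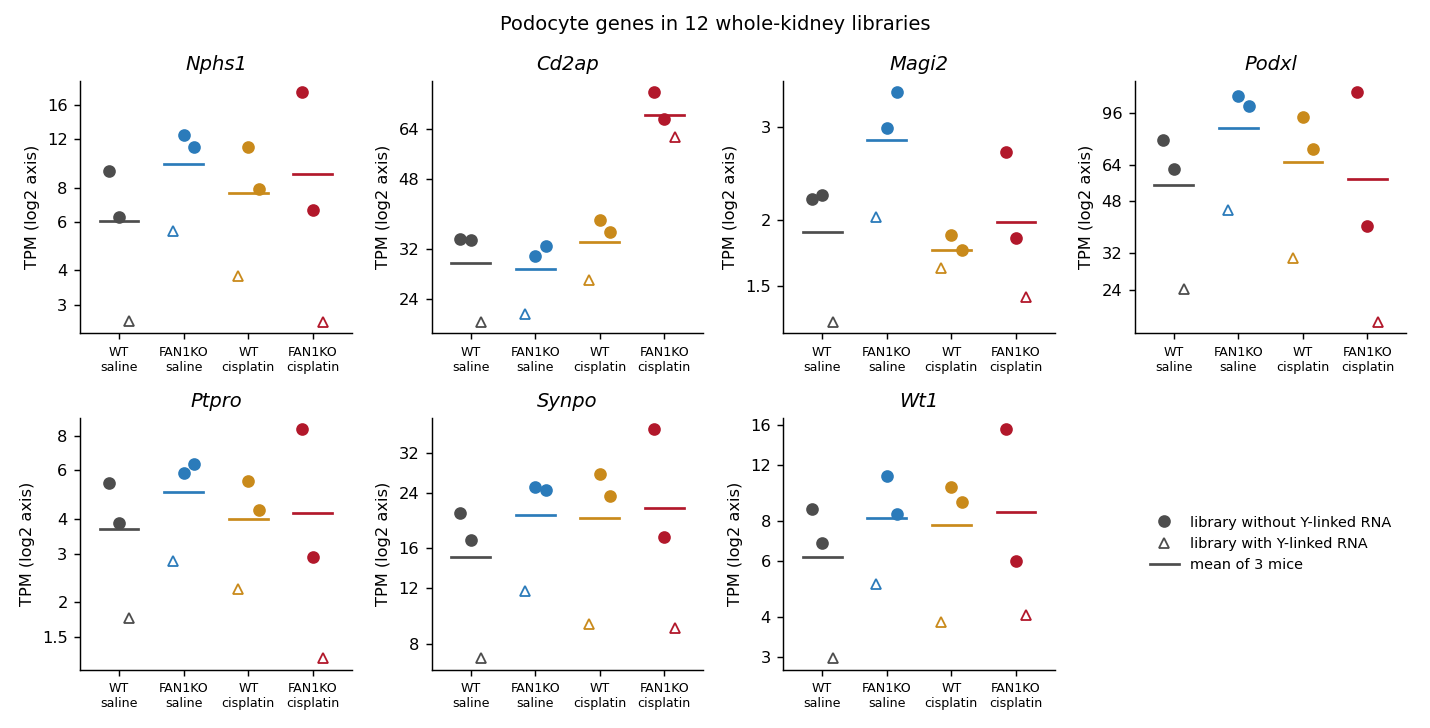
Level of each of the 7 podocyte genes in TPM on a log2 axis in every library of the 4 groups, with the mean of 3 mice as a line and open triangles for the libraries with Y-linked RNA. Cd2ap at 61.2 to 79.2 TPM in FAN1KO cisplatin kidneys stands above all other libraries, and in every group and panel the open triangle is the lowest point.

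Of the genes of the podocyte surface, Podxl was at 77.8, 62.1 and 24.1 TPM in WT saline and 44.8, 110.0 and 101.3 TPM in FAN1KO saline kidneys. It was at 30.6, 93.3 and 72.5 TPM in WT cisplatin and 112.8, 39.6 and 18.7 TPM in FAN1KO cisplatin kidneys. As with Nphs1, FAN1KO cisplatin held both the highest and the lowest library, and all groups overlapped. Ptpro was at 5.41, 3.89 and 1.75 TPM in WT saline, 2.83, 5.89 and 6.30 TPM in FAN1KO saline, 2.24, 5.48 and 4.32 TPM in WT cisplatin, and 8.46, 2.92 and 1.26 TPM in FAN1KO cisplatin kidneys. The order of the mice within each group was close to that of Podxl, and again no comparison separated the groups.

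Synpo, the actin-associated member, was at 20.7, 17.0 and 7.20 TPM in WT saline, 11.7, 25.0 and 24.5 TPM in FAN1KO saline, 9.25, 27.4 and 23.4 TPM in WT cisplatin, and 38.0, 17.4 and 8.96 TPM in FAN1KO cisplatin kidneys. Wt1, the transcription factor, was at 8.75, 6.83 and 2.97 TPM in WT saline, 5.09, 11.1 and 8.42 TPM in FAN1KO saline, 3.85, 10.3 and 9.16 TPM in WT cisplatin, and 15.5, 5.99 and 4.07 TPM in FAN1KO cisplatin kidneys. Both genes were highest in FAN1KO cisplatin 1 and lowest in WT saline 3, and their groups overlapped. Over the 12 libraries, Podxl varied 6.04-fold, Ptpro 6.73-fold, Synpo 5.28-fold and Wt1 5.23-fold, compared with 3.76-fold for Cd2ap and 2.71-fold for Magi2.

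To ask whether these genes differed by genotype after cisplatin, FAN1KO was compared with wild-type under cisplatin. The groups were not equally injured. The summed level of 4 tubule injury markers was 32.8 to 147.9 TPM in WT cisplatin and 777.7 to 1155 TPM in FAN1KO cisplatin kidneys. A difference here is thus not one between genotypes at equal injury. Cd2ap rose 2.06-fold on the log2(TPM + 1) scale, by 1.04 ± 0.22 (SE; adjusted p = 0.00797 by limma with Benjamini-Hochberg adjustment), from a mean of 33.3 ± 5.83 to 69.4 ± 9.10 TPM (SD, n = 3), with a 95% interval of 1.48- to 2.88-fold. It was the only member of 7 to pass, higher, where 19.6% of all genes tested were called higher, 4.37% lower and 23.9% in either direction. The groups of Cd2ap did not overlap (p = 0.1, two-sided exact permutation test, the smallest p that 3 against 3 mice allow), as was so for 44.3% of all genes. The remaining 6 members had log2 differences between -0.42 (Podxl) and 0.10 (Magi2), with adjusted p from 0.677 to 0.999. Their intervals were wide, and the data did not exclude sizeable differences in either direction: the 95% interval was 0.396- to 2.49-fold for Nphs1, 0.266- to 2.09-fold for Podxl, and 0.420- to 2.39-fold for Synpo. The interval was narrower for Magi2, at 0.767- to 1.49-fold. Its means were only 1.75 and 1.99 TPM, where the TPM + 1 scale understates differences, so its interval does not show better precision. The call of Cd2ap held in all 22 alternatives tried, with an adjusted p of at most 0.0409 when 1 library was left out.

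The median gene was 0.24 higher in FAN1KO than in wild-type kidneys under cisplatin and 0.37 higher in cisplatin than in saline FAN1KO kidneys on this log2 scale. With libraries scaled by median ratios, which removes this shift, the difference of Cd2ap was 0.76 (adjusted p = 0.00206 by limma) and 0.84 (adjusted p = 0.000688), respectively. With this scaling, the other 6 members all had a negative difference between genotypes under cisplatin, at -0.70 for Podxl, -0.36 for Ptpro, -0.27 for Synpo, -0.26 for Nphs1, -0.22 for Wt1 and -0.09 for Magi2, none of them past the threshold.

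To ask what cisplatin did within each genotype, treated kidneys were compared with saline kidneys. In FAN1KO mice, Cd2ap rose by 1.27 ± 0.22 on the log2 scale, 2.41-fold (adjusted p = 0.00165 by limma with Benjamini-Hochberg adjustment), with no overlap between the groups, as for 54.9% of all genes, and was the only one of the 7 members called, where 39.8% of all genes were called and 34.9% were called higher. This comparison shares its cisplatin libraries with the comparison of genotypes and is not independent of it. The differences of the other 6 lay between -0.84 (Podxl, 95% interval 0.199- to 1.57-fold) and -0.08 (Synpo), and none passed. Without FAN1KO cisplatin 1 the difference of Podxl was -1.51, and without FAN1KO cisplatin 3 it was -0.24. With median-ratio scaling Magi2 was called as well, at a log2 difference of -0.66 (adjusted p = 0.00905), where that fit called 13.7% of all genes lower. In wild-type mice none of the 7 members was called, at log2 differences of -0.06 (Magi2) to 0.38 (Synpo), and 0 of 7 had an unadjusted p under 0.05, where 0.0601% of all genes were called and 3% had such a p. The groups overlapped for all 7, while 6.28% of all genes had groups that did not.

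Under saline, the comparison of FAN1KO with wild-type kidneys asked whether the genotype altered podocyte genes without injury. None of the 7 members was called by limma and none had an unadjusted p under 0.05, against 0.768% of all genes called and 8.38% with such a p. The groups overlapped for all 7, while 12.5% of all genes had groups that did not. The estimates were 0.69 ± 0.67 for Podxl and 0.67 ± 0.60 for Nphs1 on the log2 scale, and -0.04 ± 0.22 for Cd2ap, whose 95% interval was 0.697- to 1.36-fold. With 1 library left out, Podxl ranged from 0.19, without WT saline 3, to 1.09, without FAN1KO saline 1, and Nphs1 from 0.25, without WT saline 3, to 1.00, without WT saline 1. The difference between the genotype effects under cisplatin and under saline was 1.09 ± 0.31 for Cd2ap and missed the threshold (adjusted p = 0.0613 by limma), so the genotype effect on Cd2ap was not shown to depend on cisplatin. That call was sensitive to the processing, since the adjusted p was 0.0333 with median-ratio scaling, 0.0475 with limma voom on the recovered reads and 0.00696 without the 4 libraries with Y-linked RNA. None of the other 6 members passed this test of the difference (adjusted p from 0.503 to 0.782), where 6.24% of all genes did.

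**Figure D2:**
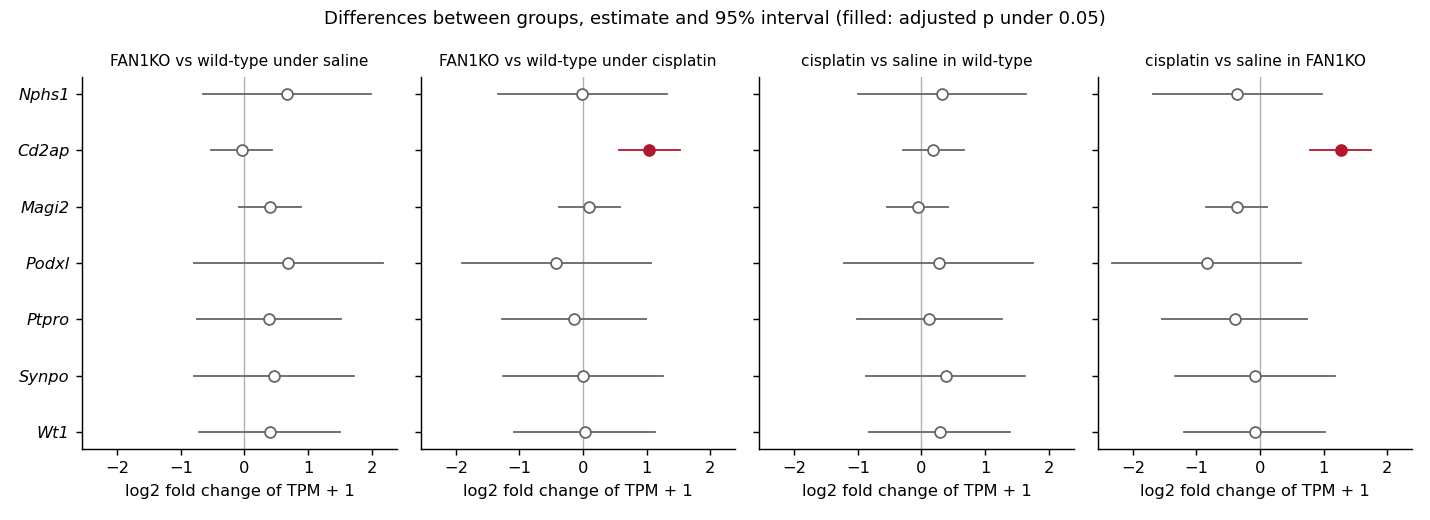
Log2 fold change of TPM + 1 with its 95% interval for the 7 podocyte genes in 4 comparisons of groups, 3 mice each, filled where the adjusted p by limma was under 0.05. Cd2ap alone is filled, at 1.04 and 1.27, and the intervals of the other genes include 0.

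Part of the spread within groups went with the library with Y-linked RNA. In each of the 4 groups this library was the lowest of the 3 for all 7 members, as it was for 41.5% of all genes tested. Nphs1 in it was 0.336 of the mean of the other libraries of the group in WT saline, 0.473 in FAN1KO saline, 0.397 in WT cisplatin and 0.214 in FAN1KO cisplatin kidneys. In FAN1KO cisplatin the libraries without Y-linked RNA were themselves far apart, at 17.8 and 6.63 TPM for Nphs1 and 112.8 and 39.6 TPM for Podxl. In the other groups such libraries were closer together. For Cd2ap the corresponding ratios were 0.622, 0.692, 0.730 and 0.832. With the level of the Y-linked genes as a covariate, all 7 members were called lower with rising Y-linked RNA (adjusted p from 0.000378 for Synpo to 0.0129 for Magi2 by limma), where 49.5% of all genes were called lower. The same 4 libraries were all the lowest of their group for 8 of 8 endothelial, 6 of 6 mesangial and 6 of 6 leukocyte markers. This held for 39 of 62 other podocyte genes, 4 of 6 parietal and 2 of 6 distal nephron markers. It held for 0 of 4 tubule injury, 0 of 4 erythroid and 0 of 8 proximal tubule markers. Of the last, 2 were the highest in all 4 groups instead, while Cubn and Aqp1 were the lowest in 3 of 4. The share of glomeruli in the tissue sampled and the sex of the mice were not given, and their part in these values was not tested. With the covariate in the fit, Cd2ap was higher in FAN1KO than in wild-type cisplatin kidneys by 1.06 (adjusted p = 5.42e-05), and the other 6 members were not called. Between cisplatin and saline FAN1KO kidneys the same fit also called Podxl (-0.79, adjusted p = 0.0424) and Magi2 (-0.35, adjusted p = 0.0489) lower, and 8.16% of all genes.

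The proportions between the 5 genes largely restricted to podocytes varied less than their levels. Across the 12 libraries the pairwise correlation of Nphs1, Podxl, Wt1, Synpo and Ptpro on the log2 scale was 0.93 to 0.98, and 0.97 to 1.00 with group means subtracted, given as a description over libraries that share tissue and depth. The ratios of their 10 pairs varied from 1.32-fold (Synpo to Wt1) to 2.63-fold (Podxl to Wt1) over all 12 libraries, although each of these genes alone varied 5.23-fold or more. Under cisplatin 4 of the 10 ratios did not overlap between the genotypes, those of Podxl to Nphs1, Synpo and Wt1 and of Ptpro to Nphs1. The 10 ratios are built from 5 genes. No share over all pairs of genes was computed, so this count is not a result about these genes. Cd2ap kept a correlation of 0.86 to 0.92 with the other 6 members inside groups, but of 0.11 to 0.43 over all libraries, and its ratio to them varied between 4.58-fold (Magi2) and 11.7-fold (Podxl).

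To compare the genes free of the shared level, each was divided by Nphs1 of the same library, an analysis chosen after the values were seen. The ratio of Podxl to Nphs1 was 8.42, 9.90 and 9.23 in WT saline, 8.01, 8.88 and 9.02 in FAN1KO saline, 8.04, 8.28 and 9.13 in WT cisplatin, and 6.35, 5.98 and 7.16 in FAN1KO cisplatin kidneys. FAN1KO cisplatin kidneys were below every other library, at 0.764 of the WT cisplatin ratio and 0.751 of the FAN1KO saline ratio (p = 0.1 each, exact permutation test). A ratio to Nphs1 this separated in the lower direction between cisplatin and saline FAN1KO kidneys was found for 0.381% of all genes. Nphs1 itself ran from 2.61 to 17.8 TPM in FAN1KO cisplatin kidneys. The ratio of a gene that does not follow Nphs1 spreads with it and can hardly separate, so this share does not measure how unusual Podxl is. The ratio of Ptpro to Nphs1 was likewise lower in FAN1KO than in wild-type kidneys without overlap, at 0.466 ± 0.0224 against 0.540 ± 0.0512 (SD, n = 3) under cisplatin, and at 0.514 ± 0.0436 against 0.625 ± 0.0430 under saline (p = 0.1 each, exact permutation test). A ratio to Nphs1 that was lower in all 3 FAN1KO libraries was found for 1.24% of all genes under cisplatin and for 24.6% under saline. The share under cisplatin has the same limit. The ratios of Synpo and Wt1 to Nphs1 overlapped between genotypes under cisplatin, at 2.73 ± 0.656 against 2.60 ± 0.295 for Synpo and 1.11 ± 0.389 against 1.03 ± 0.122 for Wt1. Under saline both were lower in FAN1KO kidneys without overlap, at 0.819 and 0.805 of the wild-type ratio.

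**Figure D3:**
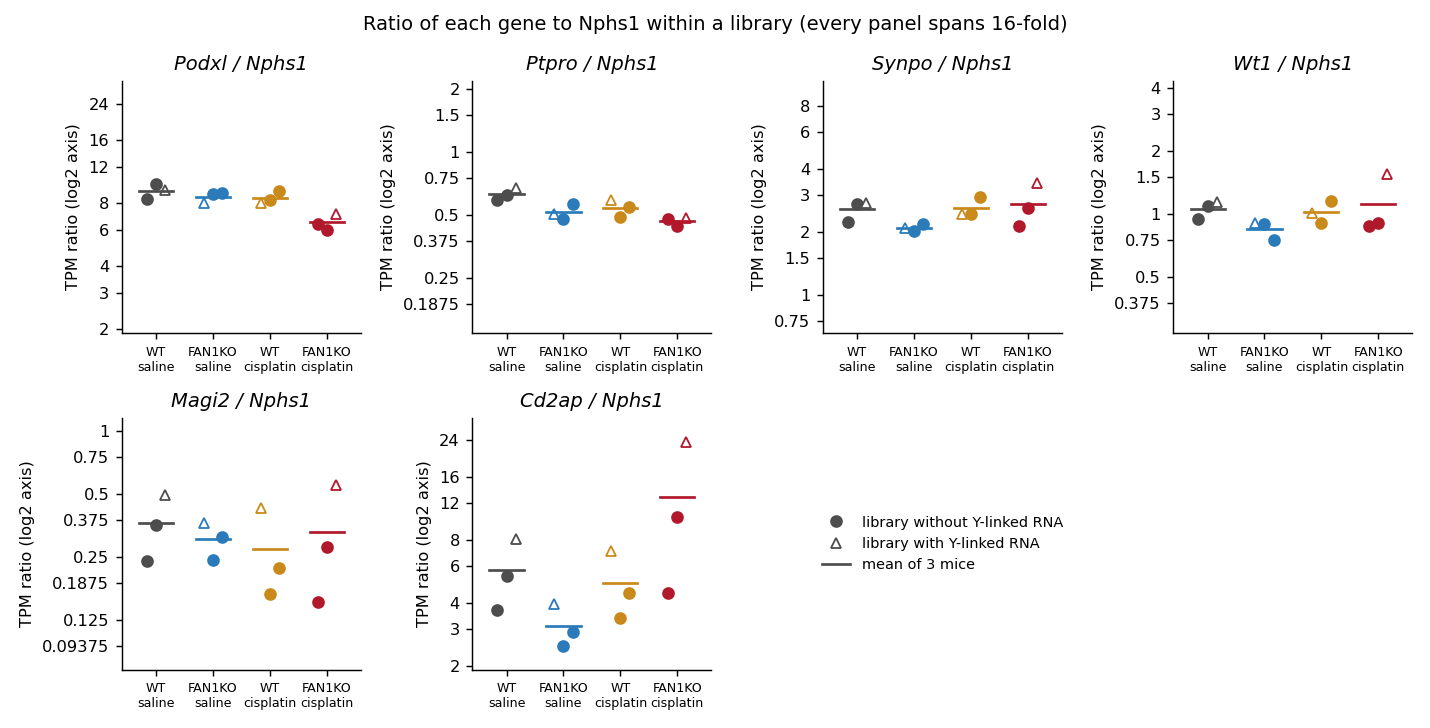
Ratio of the TPM of each gene to that of Nphs1 in the same library, on log2 axes that all span the same 16-fold range, for the 4 groups of 3 mice with means as lines. The Podxl ratio is 5.98 to 7.16 in FAN1KO cisplatin kidneys and 8.01 to 9.90 in the other 9, and the ratios of Ptpro, Synpo and Podxl vary 1.52- to 1.70-fold over all 12.

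Other genes of the podocyte were taken from lists by role, 65 genes of which 62 were tested. Their values are for whole kidney, and which cells made the RNA was not tested. Under cisplatin, 13 of the 62 were higher in FAN1KO than in wild-type kidneys and 3 were lower, with a median log2 difference of 0.35 beside 0.24 over all genes, so that the share called was close to the 23.9% of all genes. Among these 13, Anln passed the filter on low values only through the FAN1KO cisplatin libraries, and without it 12 of 61 were higher. With median-ratio scaling 11 were higher and 6 lower, and 64.7% of the calls were rises in place of 81.2%, beside 54.6% and 81.8% over all genes. With mitochondrially encoded genes left out 9 were higher and 4 lower. Without FAN1KO cisplatin 1, the kidney with the highest Nphs1, 7 were called higher. Without the 4 libraries with Y-linked RNA, 21 were higher and 3 lower.

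Over all genes tested, 19.6% were called higher in this comparison and 4.37% lower, and the counts by list are to be read beside these shares. Of 12 slit diaphragm genes tested, 3 rose, near that share, and none fell: Fat1, a giant protocadherin of the slit, from 10.2 ± 1.43 to 23.5 ± 2.21 TPM (log2 difference 1.14, adjusted p = 0.00157 by limma), Prkci, a kinase of the cell polarity complex (0.71, adjusted p = 0.0237), and Nck2, an adaptor that binds nephrin (0.50, adjusted p = 0.0384). Of 22 alternatives, the call of Nck2 was lost in 11 and that of Prkci in 5, with the highest adjusted p among the fits without 1 library, 0.151 and 0.0986, when FAN1KO cisplatin 1 was left out. Anln, encoding anillin, was at 1.71 TPM on average in FAN1KO cisplatin and 0.354 TPM in WT cisplatin kidneys, and its call is not counted because of the filter. Of the other 15 actin genes, 3 rose, among them Cfl1, encoding the actin-severing cofilin (0.90, adjusted p = 0.00135), and Ezr, encoding the membrane linker ezrin (0.76, adjusted p = 0.0387, lost in 10 of 22 alternatives and at 0.150 without FAN1KO cisplatin 1). Cfl1 was at 737.0 TPM and Ezr at 479.5 TPM in FAN1KO cisplatin kidneys, far above Nphs1 at 9.00 TPM, and both genes are expressed in many kidney cell types.

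None of the 8 transcription factors of podocytes tested was called in this comparison, where 23.9% of all genes were. Their median log2 difference was -0.18, beside 0.24 over all genes. Lmx1b, mutated in nail-patella syndrome, was at 0.886 ± 0.284 TPM in WT cisplatin and 1.06 ± 1.39 TPM in FAN1KO cisplatin kidneys (log2 difference -0.06, adjusted p = 0.930 by limma). Tcf21, also made by stromal cells, was at 21.2 ± 13.1 and 15.1 ± 11.6 TPM (-0.49, adjusted p = 0.656). The spread between FAN1KO cisplatin kidneys was wide for both, as for Nphs1.

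The basement membrane and adhesion list held the most calls, with 6 of 12 genes higher and 1 lower, beside 19.6% and 4.37% of all genes. Itga3, the integrin subunit that ties podocytes to laminin, rose from 22.7 ± 7.72 to 65.8 ± 15.7 TPM (log2 difference 1.53, adjusted p = 0.00982 by limma), Agrn, encoding the heparan sulfate proteoglycan agrin, from 42.1 ± 5.72 to 105.4 ± 17.5 TPM (1.30, adjusted p = 0.000444), and Lama5, encoding a laminin chain, from 21.6 ± 3.78 to 45.5 ± 11.4 TPM (1.03, adjusted p = 0.0104, and 0.050 without FAN1KO cisplatin 1). Col4a3, encoding a collagen IV chain of the mature glomerular basement membrane, was at 48.5, 45.7 and 38.4 TPM in WT cisplatin and 19.2, 19.7 and 18.4 TPM in FAN1KO cisplatin kidneys. It fell by 1.16 ± 0.12 (adjusted p = 0.000350), and unlike the 7 members it was not lowest in the libraries with Y-linked RNA, which held its lowest value in 2 of 4 groups and its highest in the other 2. Its partner chain Col4a4 differed by -0.43 ± 0.14 without passing (adjusted p = 0.0529), and its groups did not overlap. Col4a3 averaged 44.2 TPM in WT cisplatin kidneys, beside 7.67 TPM for Nphs1. The cells in which the genes of this list changed were not identified.

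Of 14 surface and secreted factors, none rose and 2 fell, where 19.6% and 4.37% of all genes did. Vegfa, the growth factor by which podocytes sustain the capillary endothelium and which tubule cells make too, was at 98.9, 105.2 and 114.2 TPM in WT cisplatin and 73.8, 62.7 and 55.4 TPM in FAN1KO cisplatin kidneys. It fell by 0.73 ± 0.12 on the log2 scale (adjusted p = 0.00329 by limma). Rhpn1, encoding rhophilin, fell by 0.34 ± 0.11 (adjusted p = 0.0428), a call lost in 13 of 22 alternatives (0.0950 without the 4 libraries with Y-linked RNA and 0.152 without FAN1KO cisplatin 2).

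**Figure D4:**
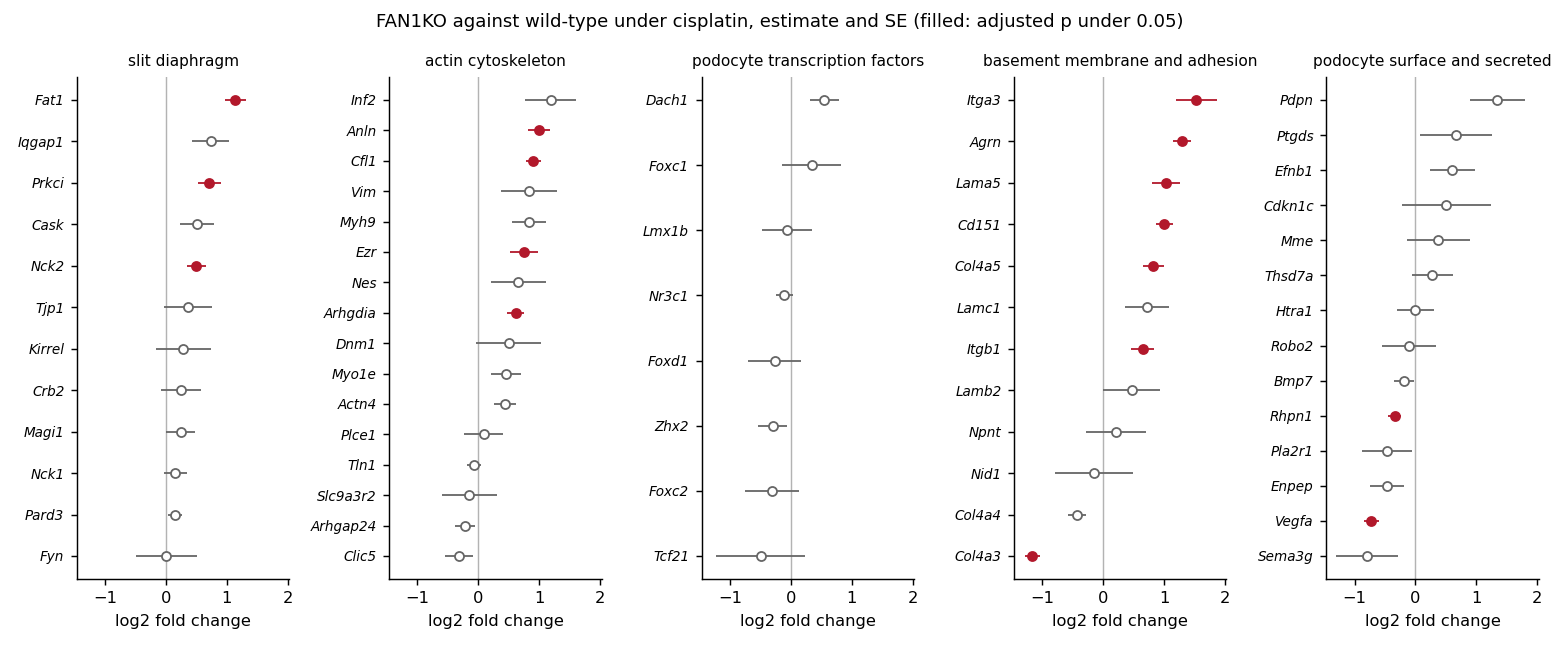
Log2 fold change, FAN1KO minus wild-type under cisplatin, with its SE for 62 other podocyte genes in 5 lists by role, filled where the adjusted p by limma was under 0.05 (Anln included, which passed the filter only through FAN1KO cisplatin libraries). Itga3 at 1.53 and Agrn at 1.30 are the highest of the filled genes and Col4a3 at -1.16 the lowest, and no transcription factor is filled.

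Between cisplatin and saline in FAN1KO mice, 18 of the 62 other genes were higher and 3 were lower, at a median log2 difference of 0.42 beside 0.37 over all genes and with 39.8% of all genes called. Without Anln 17 of 61 were higher. With median-ratio scaling 13 were higher and 10 lower, and 56.5% of the calls were rises in place of 85.7%. Without FAN1KO cisplatin 1, 11 were higher and 5 lower. Itga3 (1.86, adjusted p = 0.00210 by limma), Fat1 (1.86, adjusted p = 7.51e-05), Agrn (1.82, adjusted p = 4.82e-05) and Lama5 (1.70, adjusted p = 0.000522) rose here too, the cisplatin libraries being the same. The actin genes Inf2, encoding a formin (1.46, adjusted p = 0.0187), Vim, encoding vimentin (1.27, adjusted p = 0.0466), and Cfl1 (1.12, adjusted p = 0.000226), the slit scaffold genes Iqgap1 (1.07, adjusted p = 0.0192) and Nck2 (0.63, adjusted p = 0.00879), and Ptgds, encoding a prostaglandin synthase (2.25, adjusted p = 0.0129), were also higher. Nck2 was not called with median-ratio scaling (0.21, adjusted p = 0.182). Without FAN1KO cisplatin 1 the adjusted p was 0.0838 for Inf2, 0.0778 for Iqgap1 and 0.0531 for Ptgds.

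The 3 genes that fell in this comparison were Col4a3, by 0.98 (adjusted p = 0.000379 by limma), Vegfa, by 0.71 (adjusted p = 0.00179), and Clic5, encoding a chloride intracellular channel protein of foot processes, by 0.66 (adjusted p = 0.0392). Clic5 lost its call in 10 of 22 alternatives (adjusted p up to 0.129, without FAN1KO saline 3) and Vim in 13 (up to 0.173, without FAN1KO saline 1). In wild-type mice cisplatin moved none of the 62 genes past the threshold, and neither did the genotype under saline, with 2 of 62 at an unadjusted p under 0.05 in each. Over all genes, 0.0601% were called and 3% had such a p in the first comparison, and 0.768% and 8.38% in the second, so neither count is a result about these genes.

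Some markers of other kidney cells moved between the cisplatin groups as well. Over all genes, 19.6% were called higher here and 4.37% lower. The summed level of 8 endothelial markers was 78.7 to 394.1 TPM in WT cisplatin and 45.1 to 172.5 TPM in FAN1KO cisplatin kidneys, with 0 of 8 called. That of 6 mesangial markers was 223.9 to 861.0 and 97.4 to 196.7 TPM. Of the latter only renin (Ren1) was called lower, from a mean of 453.4 to 34.0 TPM, and the other 5 summed to 55.8 to 149.8 and 79.4 to 149.8 TPM. The sum of 6 parietal epithelial markers, which mark the lining of the glomerular capsule but several of which injured tubules make too, was 42.4 to 87.3 and 259.1 to 388.1 TPM, with 6 of 6 called higher. For 4 markers of tubule injury the sum was 32.8 to 147.9 and 777.7 to 1155 TPM, with 4 of 4 called higher, of which Krt20 passed the filter only through FAN1KO cisplatin libraries, and for 8 proximal tubule markers 5423 to 7206 and 2562 to 4506 TPM, with 6 of 8 called lower. Leukocyte markers summed to 30.4 to 124.4 and 96.3 to 213.4 TPM, with 1 of 6 called higher. Distal nephron markers summed to 1655 to 3690 and 2884 to 3464 TPM, with 1 of 6 called higher and 1 lower. That sum hides opposite moves, since Pvalb went from a mean of 282.5 to 11.4 TPM and Aqp2 from 398.4 to 995.2 TPM. The 4 erythroid markers in the table summed to 2318 to 6571 and 6.56 to 73.3 TPM, with 4 of 4 called lower. The 7 podocyte genes summed to 78.1 to 187.4 and 98.1 to 274.4 TPM, with overlap. This sum includes Cd2ap, which many cell types make and which was at 26.7 to 37.8 and 61.2 to 79.2 TPM. Podxl, the most abundant of the rest, was at 30.6 to 93.3 and 18.7 to 112.8 TPM. No marker was at 0 throughout a group, and the part of these other cells in the changes of Cd2ap, Itga3, Agrn, Col4a3 and Vegfa was not tested.

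The genes whose profile over the 12 libraries was most like the mean z-score of the 7 members were Clic3 (Pearson r = 0.98), Cdkn1c (0.97), Gucy1a1 (0.96), Golim4 (0.95) and Plce1 (0.95), a description over libraries that share tissue and groups. Cdkn1c, a cell cycle inhibitor, and Plce1, a phospholipase, are known podocyte genes. Among other podocyte genes, of which Robo2 and Foxc2 were picked after their values were seen, Robo2 was the ninth gene in this order, Foxc2 stood at rank 39 and Lmx1b at 93. Tcf21 stood lower, at rank 124, and Sema3g at 505. With group means subtracted the highest were Arih2, Foxd2os, Srgap1, Rasl11a and Gucy1a1, all at 0.99. Lmx1b, with r = 0.90, then stood at rank 1813, so a high r inside groups was not particular to podocyte genes. Col4a3 (r = -0.13) and Col4a4 (r = -0.55) did not follow the members over the 12 libraries.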

How the data were processed

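Total RNA from 12 whole mouse kidneys, labelled as separate mice, was sequenced as paired reads, and the deposited table holds gene levels in TPM, which the authors computed from their reads and which sum to 1000000 in each library. The submitters' processing notes name the mm10 genome and limma, while the aligner and the annotation are not given in the sources used here. NCBI Gene numbers were named with the RefSeq table of GRCm38.p6, and 1904 of 27179 numbers had no name there. No strand setting was known.

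Genes at 1 TPM or more in at least 3 libraries were kept, 14972 in all. Log2(TPM + 1) values of all 12 libraries were fitted with 4 group means by limma 3.58.1 in R 4.3.3, with a mean-variance trend, and p-values were adjusted by Benjamini-Hochberg over all genes kept, with a threshold of 0.05. The tests were 2-sided, and limma's 95% intervals are given as folds on that scale, which understates the change of genes at low levels. Single values were tested by 2-sided exact permutation of 3 against 3 mice. Other values were computed in Python 3.11.15 with numpy 2.4.6, pandas 2.3.3, scipy 1.17.1 and matplotlib 3.10.9. The fit was tested on simulated data.

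Whole reads were recovered from the steps of the TPM values: all 14972 genes kept came out within 0.02 of a whole read in every library, a fit that 0 of 500 genes with randomly shifted values reached. At this resolution 1 read per kilobase equalled 0.0200 to 0.0479 TPM.

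Members, gene lists and tests were chosen with earlier results of these data known. Genes were named by rule: the 7 members, Fan1, Lmx1b, Tcf21, Col4a3 and Col4a4, up to 3 rises and 3 falls per list and comparison, and the 5 genes most like the members' mean z-score, with and without group means. Lists covered the slit diaphragm, actin cytoskeleton, transcription factors, basement membrane and adhesion, and surface and secreted factors of podocytes, and markers of parietal, mesangial, endothelial, proximal tubule, injured tubule, distal nephron, leukocyte and erythroid cells. Some genes of these lists are not reported here and were left out of the counts. Alternatives were median-ratio scaling, a pseudocount of 0.1, no filter, the 6 libraries of a comparison alone, no trend, a replicate block, a covariate of Y-linked genes, mitochondrially encoded genes left out, limma voom on the recovered reads and each library left out. Fits without the 4 libraries with Y-linked RNA and ratios to Nphs1 were added after the data were seen.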

Additional observations from a re-analysis of the deposited data

Results flagged for a closer look

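For 6 of the 62 other podocyte genes, the effect of the genotype differed between cisplatin and saline by the interaction term of limma with Benjamini-Hochberg adjustment, where 6.24% of all genes passed. The log2 difference of the effects, cisplatin minus saline, was 1.63 for Agrn (adjusted p = 0.00492), 1.20 for Fat1 (adjusted p = 0.0206), 1.09 for Cfl1 (adjusted p = 0.0126) and 0.94 for Cd151, encoding a tetraspanin that binds laminin-binding integrins (adjusted p = 0.0240). It was -1.11 for Col4a3 (adjusted p = 0.0111) and -0.81 for Vegfa (adjusted p = 0.0282). Agrn, Cfl1 and Col4a3 kept their call in every alternative tried. Fat1 lost it in 5 of the fits that left out 1 library, with the highest adjusted p, 0.0611, without FAN1KO cisplatin 1. Cd151 lost it with median-ratio scaling (adjusted p = 0.0737), with the replicate block (0.0507) and in 6 fits without 1 library (up to 0.0611, without WT saline 2), and Vegfa with the block (0.0576) and in 7 (up to 0.0725, without FAN1KO cisplatin 2). None of the 7 members was among them by this test.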

How the results depend on the processing

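The call of Cd2ap held under every alternative in both comparisons with FAN1KO cisplatin kidneys. With 3 mice a group and 2.71- to 6.82-fold spread between libraries, the intervals of the remaining members other than Magi2 were too wide to show moderate differences. The interval of Magi2 was narrower on a scale that understates differences at its low level. For Magi2 in WT cisplatin kidneys, counting error was of the order of the spread between mice.

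Same-numbered libraries came from different mice. After subtraction of group means the average correlation was 0.018 for the same number (-0.61 to 0.76 over 18 pairs) and 0.015 for different numbers. Pairs in which both libraries held Y-linked RNA were at 0.48 to 0.78, so Y-linked status weighed on these averages. They showed no pairing by number but cannot decide whether there was any. In the fit with the replicate block the other podocyte genes called lower numbered 2 between cisplatin and saline in FAN1KO mice and 1 in the interaction, with 11 higher and 2 lower between genotypes under cisplatin, and Cd2ap kept its adjusted p under 0.05.

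Log2 differences near 0 changed sign. For FAN1KO minus wild-type under cisplatin, Nphs1 was at 0.028 with the Y-linked covariate, 0.0053 with voom and 0.19 without the 4 libraries with Y-linked RNA, which also gave 0.052 for Ptpro and 0.086 for Lmx1b. Median-ratio scaling gave -0.092 for Magi2, -0.27 for Synpo and -0.22 for Wt1, leaving out mitochondrial genes -0.094 for Synpo and -0.065 for Wt1, and Synpo was at -0.00058 with a pseudocount of 0.1 and -0.025 with voom. Cd2ap under saline was at 0.0097 with median-ratio scaling. Between cisplatin and saline in FAN1KO mice, Synpo was at 0.055 and Wt1 at 0.011 without the Y-linked libraries. The cause was not tested.

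Counts also changed with the Y-linked covariate and without those 4 libraries. For the other podocyte genes, 26 and 21 were then higher between genotypes under cisplatin, 29 and 27 higher and 6 and 6 lower between treatments in FAN1KO mice, 21 and 12 higher in the interaction, and 1 and 1 higher under saline. The covariate gave 5 lower under cisplatin and 6 lower in the interaction, and without the libraries 1 was lower under saline. Median-ratio scaling gave 6 lower under cisplatin and 10 between treatments, where leaving out mitochondrial genes gave 5. Of the members, 1 was lower between treatments with scaling and 2 with the covariate, and in the interaction 1 was higher with scaling, the covariate, voom or without the Y-linked libraries.

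With 1 library left out, the other genes called ranged from 7 to 16 higher and 2 to 4 lower under cisplatin, 11 to 19 higher and 2 to 5 lower between treatments, and 2 to 6 higher and 1 to 2 lower in the interaction, and members higher in the interaction from 0 to 1. Between genotypes under cisplatin, log2 differences ranged from -0.62 to 0.57 for Nphs1, -1.09 to 0.17 for Podxl, -0.70 to 0.34 for Ptpro, -0.51 to 0.48 for Synpo, -0.46 to 0.39 for Wt1, -0.065 to 0.24 for Magi2, -0.57 to 0.22 for Lmx1b, -1.09 to 0.0021 for Tcf21 and -0.39 to 0.022 for Fan1. Under saline, Cd2ap ranged from -0.26 to 0.13, Podxl from 0.19 to 1.09 and Nphs1 from 0.25 to 1.00. Between treatments in FAN1KO mice, Podxl ranged from -1.51 to -0.24, Nphs1 from -0.97 to 0.22, Ptpro from -0.96 to 0.077, Synpo from -0.59 to 0.40, Wt1 from -0.57 to 0.28 and Lmx1b from -0.65 to 0.14. In wild-type mice, Cd2ap ranged from -0.037 to 0.33, Magi2 from -0.22 to 0.027, Nphs1 from -0.10 to 0.70, Podxl from -0.23 to 0.74, Ptpro from -0.22 to 0.41, Synpo from -0.041 to 0.84 and Wt1 from -0.088 to 0.67. In the interaction, Synpo ranged from -0.97 to 0.014 and Wt1 from -0.86 to 0.0065.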
